A study of Mus musculus with 4 samples.

Results

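The genes described here control pyruvate dehydrogenase in V6.5 mouse embryonic stem cells in which RPB3, a core subunit of RNA polymerase II, could be degraded. They are 10 of the 30282 genes in the deposited table: the kinases Pdk1, Pdk2, Pdk3 and Pdk4, the phosphatase genes Pdp1, Pdp2 and Pdpr, and the core subunit genes Pdha1, Pdhb and Dlat, found by symbol. They were picked because Pdk1 had one of the largest falls in the comparison described below, so the Pdk1 change is given as a description with no test. Pdk1 was thus chosen by its fold change between these same libraries. The other 9 genes joined it by function. All 10 had a mean above the minimum of 10 normalised reads and entered the fit over 14928 genes.

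The cells carried RPB3 fused to the auxin-inducible degron mAID and GFP, and both groups received doxycycline at 1 µg/ml for 12 h to induce TIR1, the plant protein that marks the degron for destruction. The IAA group (2 libraries) was then given the auxin IAA at 500 µM for 12 h, while the untreated group (2 libraries) received doxycycline alone. All cells grew with inhibitors of GSK3 and MEK. Another sentence of the labels speaks of depletion for 1 h, and the 12 h given with each sample is used. The labels name a single degron line without saying whether it was cloned, and no library of degron-free cells with IAA was analysed here, so an effect of IAA itself and an effect of RPB3 loss cannot be told apart. Poly(A) RNA was sequenced, and values are normalised read counts, that is reads divided by the size factor the authors used for each library.

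The libraries held 8724737 to 9194432 reads. Whether replicates are separate cultures is not stated in the labels, and the p-values therefore reflect library-to-library spread that could be purely technical. Polr2c, which encodes RPB3, had 3242 and 3158 normalised reads in the IAA libraries, against 2726 and 2885 in the untreated libraries, but an mRNA level does not check that the protein was lost. The 8 embryonic stem cell markers summed to 53340 and 51740 normalised reads with IAA and to 52518 and 53310 without, but moved in both directions: limma called 2 higher, Klf4 (log2 fold change 0.52) and Nanog (0.33), and 4 lower, of which Dppa5a (-0.36) and Tdgf1 (-0.27) changed most. Of 8 feeder fibroblast markers, Postn, Lum and Dcn were not among the rows used, and the whole list summed to 159 and 176 with IAA against 225 and 273 in untreated libraries. Thy1 had 84 and 94 normalised reads with IAA against 140 and 167 without (-0.78, limma adjusted p = 0.000235), and Col1a1 had 30 and 32 with IAA against 41 and 69 without (-0.76, limma adjusted p = 0.0212). Pdgfra went the other way, with 42 and 41 with IAA against 34 and 31 without (0.34), and was not called. Col1a2 had 3 and 7 with IAA and 9 and 6 without, and Col3a1 had 0 and 2 with IAA and 1 and 0 without. Pdgfra, Col1a2 and Col3a1 were named after their values were seen. The part of such cells in the results was not tested. Primitive endoderm markers summed to 221 and 255 with IAA and to 260 and 229 without, and trophoblast markers to 941 and 910 with IAA and to 982 and 964 without.

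Pyruvate dehydrogenase is the mitochondrial complex that turns pyruvate, the end product of glycolysis, into acetyl-CoA for the citric acid cycle. Its kinases phosphorylate the alpha subunit of the E1 enzyme and switch the complex off, and its phosphatases remove these phosphates and switch it on again. Mammalian cells express several kinases from separate genes. PDK1 is known as a target of the hypoxia-inducible factor HIF-1, through which cells in low oxygen keep pyruvate out of mitochondria, and PDK4 as a gene induced by fasting. Pluripotent stem cells are known for a high rate of glycolysis.

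The promoters of the 4 kinase genes are shown because these related genes had unlike fold changes. Each is the RefSeq sequence on GRCm38.p6 from 250 bases before to 50 bases after the start site nearest to the GENCODE gene start, written 5′ to 3′ on the strand of the gene. Capitals mark the letters ACGTG and GCGTG, the core to which HIF binds, on either strand.
Pdk1 (chr2:71872974-71873273, + strand): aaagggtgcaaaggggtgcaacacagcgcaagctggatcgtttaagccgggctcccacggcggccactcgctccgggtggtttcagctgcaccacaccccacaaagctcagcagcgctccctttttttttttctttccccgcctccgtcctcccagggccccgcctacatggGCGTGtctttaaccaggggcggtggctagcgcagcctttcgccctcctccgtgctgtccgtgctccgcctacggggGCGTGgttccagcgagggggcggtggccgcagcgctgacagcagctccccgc
Pdk2 (chr11:95041322-95041621, - strand): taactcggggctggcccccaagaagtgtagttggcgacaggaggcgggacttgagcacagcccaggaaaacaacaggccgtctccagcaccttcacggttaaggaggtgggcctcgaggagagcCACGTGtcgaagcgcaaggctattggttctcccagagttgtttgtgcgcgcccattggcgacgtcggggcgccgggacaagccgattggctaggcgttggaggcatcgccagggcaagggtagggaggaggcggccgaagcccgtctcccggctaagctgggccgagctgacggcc
Pdk3 (chrX:93832101-93832400, - strand): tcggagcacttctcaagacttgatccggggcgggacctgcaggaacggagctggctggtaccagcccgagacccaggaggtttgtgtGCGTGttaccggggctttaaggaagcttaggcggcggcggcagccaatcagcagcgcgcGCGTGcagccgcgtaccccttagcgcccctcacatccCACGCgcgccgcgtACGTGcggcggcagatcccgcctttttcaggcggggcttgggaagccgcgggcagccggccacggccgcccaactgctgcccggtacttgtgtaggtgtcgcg
Pdk4 (chr6:5496229-5496528, - strand): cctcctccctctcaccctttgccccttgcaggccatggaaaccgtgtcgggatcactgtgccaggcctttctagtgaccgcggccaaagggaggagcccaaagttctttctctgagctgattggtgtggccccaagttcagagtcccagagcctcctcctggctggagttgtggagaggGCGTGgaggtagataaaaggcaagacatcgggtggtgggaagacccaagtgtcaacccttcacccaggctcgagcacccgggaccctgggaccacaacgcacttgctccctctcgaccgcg
The Pdk1 window held GCGTG at 2 places, beginning at -78 and -2 from the start site, and no ACGTG. The Pdk3 window held GCGTG at 3 places and ACGTG at 1, and Pdk4 held GCGTG once, at -71. In Pdk2 both matches to ACGTG lie on opposite strands of a single CACGTG, an E-box, with which they overlap. Such short runs are common: ACGTG was found in 19.6% and GCGTG in 32.4% of 32851 promoters of this length, and either in 43.8%. Of the other members, Pdha1, Pdhb, Pdp2 and Pdpr held at least 1 of the runs, Dlat held none, and Pdp1 was not matched in the promoter table. A match is a run of letters, not a measured binding site.

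Among the kinases, Pdk1 was lower after IAA by far more than the others. Pdk1 (ENSMUSG00000006494, chromosome 2, 71873224 to 71903858, GRCm38) had 317 and 274 normalised reads in the IAA libraries, against 902 and 877 in the untreated libraries. Both IAA libraries lay far below both untreated ones. Its mean was 295.5 ± 30.4 with IAA and 889.5 ± 17.7 without (SD, n = 2 each), so that 33.2% of the untreated level was left. The log2 fold change was -1.59 (SE 0.08), or -1.48 relative to the median gene, and it ranked 2 by fall among 9406 named genes with a mean of at least 100. In the authors' deposited table Pdk1 was the only member labelled down, with a log2 fold change of -1.59 and place 4 by fold among the 67 genes so labelled. These values are the reason for the choice of Pdk1 and stand here without a test.

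Pdk4, the fasting-induced kinase, was also called lower by limma but not in the authors' deposited table, and Pdk2 and Pdk3 did not pass the test. Pdk4 had 140 and 118 normalised reads with IAA, against 195 and 187 in untreated libraries. The groups did not overlap, as was true of 68.1% of all genes tested (IAA below in 45.6% and above in 22.5%), and the log2 fold change was -0.57 (limma SE 0.12, adjusted p = 0.00111). In the authors' deposited DESeq2 results its SE was 0.28 and its adjusted p 0.178. Pdk3, the kinase with the highest level per length here, had 671 and 611 with IAA and 599 and 601 without. Both IAA values were the higher ones, but the log2 fold change of 0.09 (SE 0.07) did not pass at the deposited scaling (limma adjusted p = 0.294), while median-of-ratios factors placed it at 0.19 with a limma adjusted p of 0.0156. Pdk2 had 117 and 98 normalised reads with IAA and 107 in both untreated libraries. The IAA values lay on either side of the untreated ones, with a log2 fold change of 0.00 (SE 0.15).

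**Figure D1:**
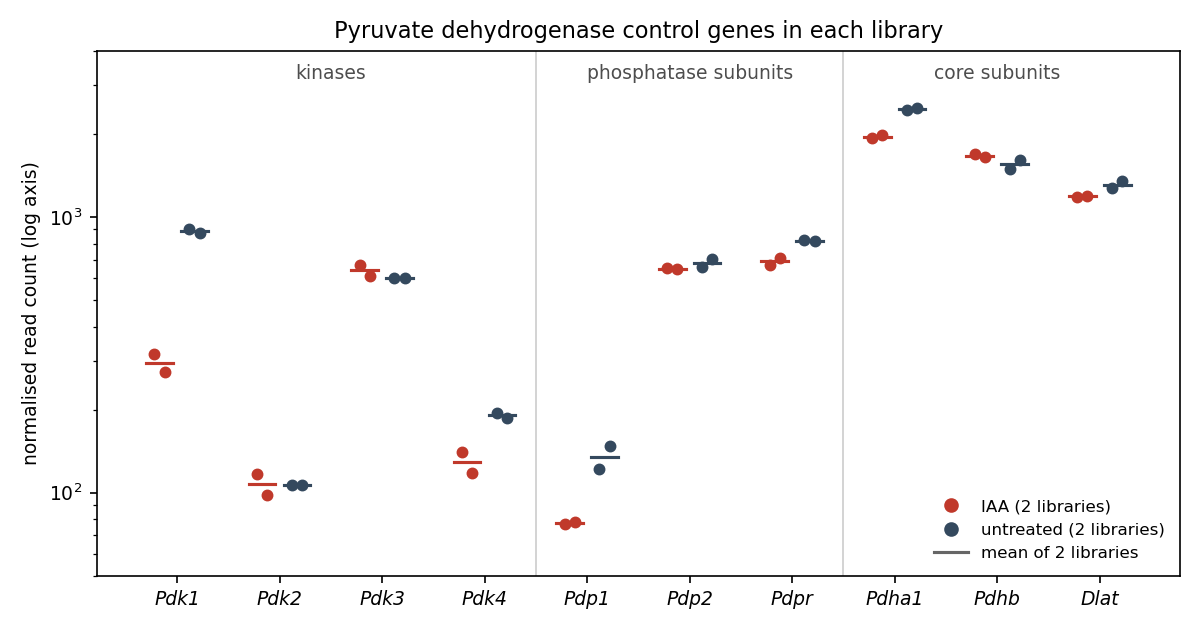
Normalised read counts (log axis) of the 10 genes in each library, with IAA in red to the left of untreated in dark blue and a line at each mean of 2 libraries. Pdk1 shows the widest gap between the groups, Pdk4, Pdp1, Pdpr, Pdha1, Dlat and Pdp2 lie lower with IAA without overlap, Pdk3 and Pdhb lie higher, and the Pdk2 groups overlap.

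Of the phosphatase genes, Pdp1 fell the most in size. Pdp1 and Pdp2 encode the catalytic subunits, and Pdpr encodes a regulatory subunit. Pdp1 (chromosome 4, 11958184 to 11966452) had 77 and 78 normalised reads with IAA, against 122 and 148 without. Both IAA libraries were lower, at a low level, and the log2 fold change was -0.79 (limma SE 0.15, adjusted p = 0.000338). The authors' deposited DESeq2 results gave Pdp1 an SE of 0.34 and an adjusted p of 0.115. Pdp2 had 652 and 645 with IAA and 658 and 705 without. The IAA values lay just below the untreated ones, and the log2 fold change of -0.07 (SE 0.07) did not pass (limma adjusted p = 0.415) and turned to 0.03 with median-of-ratios factors. Pdpr had 669 and 711 with IAA against 822 and 818 without, a log2 fold change of -0.25 (limma SE 0.06, adjusted p = 0.00309). For Pdpr the authors' deposited DESeq2 results had an SE of 0.14 and an adjusted p of 0.243. Its exons share 169 bases with 9430091E24Rik on the opposite strand, which had 86 and 56 normalised reads with IAA and 88 and 75 without. As the strand setting of the counting is not given in the sources used here, reads of these genes may be mixed.

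Within the core of the complex, the mRNA of the regulated E1 alpha subunit had the widest change. Pdha1 encodes the E1 alpha subunit, the substrate of the kinases, on the X chromosome (160122209 to 160138413). It had 1926 and 1975 normalised reads with IAA, against 2447 and 2485 without. The groups were well apart, with a log2 fold change of -0.34 (limma SE 0.04, adjusted p = 3.91e-06). Pdhb, which encodes E1 beta, the partner of Pdha1 in the same enzyme, had 1686 and 1644 with IAA and 1494 and 1610 without. Its IAA values were the higher ones, and the log2 fold change of 0.10 (SE 0.05) did not pass at the deposited scaling (limma adjusted p = 0.113), whereas median-of-ratios factors gave 0.20 with a limma adjusted p of 0.000288. Dlat, which encodes the E2 acetyltransferase, had 1179 and 1194 with IAA and 1273 and 1343 without. Its log2 fold change of -0.14 (limma SE 0.05, adjusted p = 0.0385) lay -0.03 from the median gene and was not called with median-of-ratios factors (-0.04, limma adjusted p = 0.581). Exons of Pdha1 share 603 bases with Map3k15 on the opposite strand, a gene with only 66 and 75 normalised reads with IAA and 67 and 66 without. A pseudogene copy of Pdha1, 4930519F09Rik, is 90.1% identical over 1118 aligned bases and had 0 and 1 normalised reads with IAA and 0 and 2 without.

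Across the 10 genes, 6 were called lower by limma at an adjusted p of 0.05, Pdk1 included, and none higher, in a table where 28.9% of all genes were called lower and 11.1% higher (39.9% in either direction). In 7 of the 10 both IAA libraries lay below both untreated ones, against 45.6% of all genes, in 2 above, against 22.5%, and in Pdk2 the groups overlapped. Since the Pdk1 value chose the group, nothing is read from that count. The median log2 fold change of all genes was -0.11 at the deposited scaling and -0.01 with median-of-ratios factors, under which 5 members were called lower and Pdk3 and Pdhb higher, against 20.4% lower, 20.4% higher and 40.8% in either direction over all genes. In the authors' deposited table, where 9.57% of 11495 genes with an adjusted p were lower and 2.47% higher (12.0% in all) at a threshold of 0.05, the lower members were Pdk1 and Pdha1 (adjusted p = 0.00233 for Pdha1), and the adjusted p was 0.178 for Pdk4, 0.115 for Pdp1, 0.243 for Pdpr and 0.466 for Dlat. Without any 1 library, limma on log2 values called no gene of the table (4738 to 5080 genes had an unadjusted p under 0.05), whereas limma's voom on recovered reads still called Pdk4, Pdp1, Pdpr and Pdha1 without each library in turn and called Dlat in 1 of these 4 fits.

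**Figure D2:**
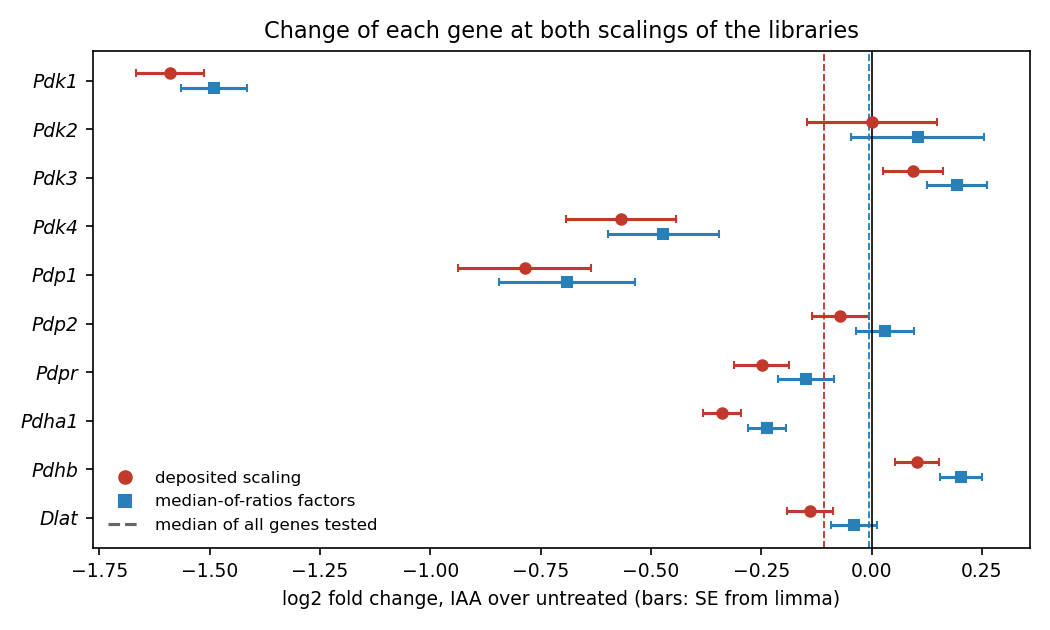
Log2 fold change of each gene, IAA over untreated, with its SE from limma, at the deposited scaling (circles) and with median-of-ratios factors (squares), and dashed lines at the median of all genes tested. Pdk1 lies at -1.59 and -1.49, far left of the other genes, and Pdp2 changes sign between the scalings.

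To compare levels between genes, values were divided by the length of each gene's merged exons and are given as normalised reads per kb. The order depends on that choice, and places that move with the length of the longest transcript are given with it. In untreated cells the order was Pdha1 (660.4 ± 7.20), Pdhb (402.0 ± 21.2), Dlat (267.7 ± 10.1), Pdk3 (234.3 ± 0.552), Pdpr (163.1 ± 0.563), Pdp2 (119.7 ± 5.84), Pdk1 (114.3 ± 2.27), Pdk4 (54.4 ± 1.61), Pdk2 (33.8 in both) and Pdp1 (30.0 ± 4.08), each as mean and SD of 2 libraries. The libraries of Pdp2 and Pdk1 overlapped on this scale, but per kb of longest transcript untreated Pdk1 averaged 171.6, above Pdpr at 166.1 and Pdp2 at 119.7. In IAA cells Pdk1 stood at 38.0 ± 3.91 per kb of merged exon, where its libraries overlapped with those of Pdk4 at 36.7 ± 4.43 and Pdk2 at 34.0 ± 4.25. Per kb of longest transcript these genes did not overlap, with 61.1 and 52.8 for Pdk1, 52.1 and 43.6 for Pdk2 and 40.2 and 33.9 for Pdk4 in the IAA libraries. Pdk3 at 250.3 ± 16.6 overlapped with Dlat at 242.8 ± 2.17. Pdha1 and Pdhb changed places in IAA cells per kb of longest transcript, where Pdhb averaged 700.5 and Pdha1 684.9, with overlapping libraries. Per kb of merged exon Pdk1 therefore lay among the minor kinase mRNAs after IAA, while in untreated cells both its libraries were above those of Pdk4 and Pdk2. Without division by length its IAA libraries (317 and 274) were also above those of Pdk4 (140 and 118) and Pdk2 (117 and 98).

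Shares and ratios between genes of the same library do not depend on the scaling between libraries. Pdk1 made up 10.7% and 10.4% of the summed kinase level per kb in the IAA libraries, against 26.4% and 25.9% in the untreated libraries. Pdk3 made up 69.0% and 70.5% with IAA, against 53.3% and 54.0% without, so that neither share overlapped between the groups. Both shares contain Pdk1, whose value chose the genes, and are a description. Among the kinases other than Pdk1, Pdk3 made up 77.3% and 78.7% with IAA and 72.4% and 72.9% without, and Pdk4 11.8% and 11.1% with IAA and 17.2% and 16.6% without. The ratio of Pdk1 to Pdk3 per kb was 0.156 and 0.148 with IAA, against 0.496 and 0.480 without. Pdk4 had 10.5% and 9.93% with IAA against 12.6% and 12.3% without, and Pdk2 had 9.74% and 9.16% with IAA against 7.70% and 7.79% without. With 2 libraries a group, an exact two-sided permutation test cannot go below p = 0.333, so these shares were not tested.

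**Figure D3:**
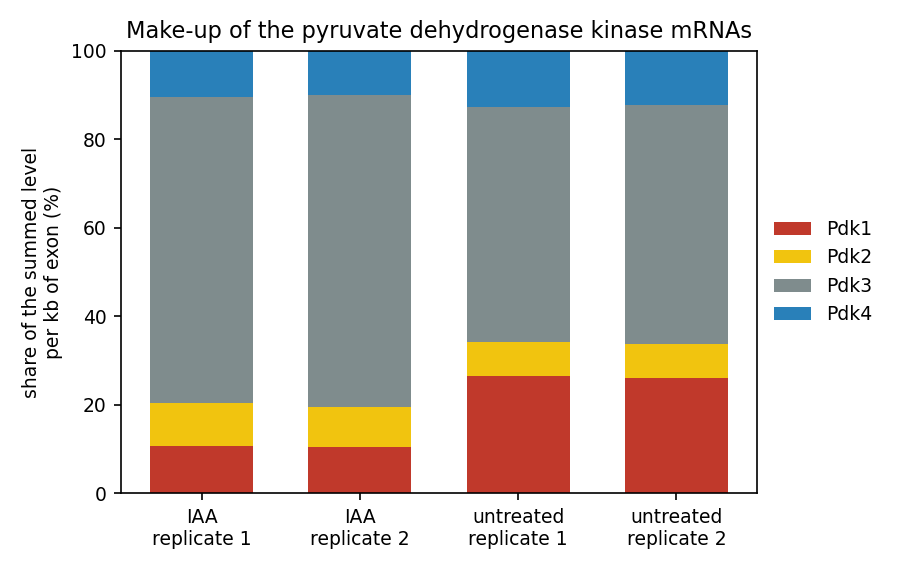
Share of each kinase gene in the summed level of Pdk1 to Pdk4 per kb of exon (%), as a stacked bar for each library, IAA on the left. The Pdk1 part is 10.7% and 10.4% in the IAA bars and 26.4% and 25.9% in the untreated bars, and the Pdk3 part is the widest in each bar.

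The balance of kinases to phosphatases overlapped between the groups per kb of exon, and this rested on the division by length. The summed kinase level was 2.88 and 2.59 times that of Pdp1 and Pdp2 in the IAA libraries, and 3.08 and 2.77 times in the untreated libraries. Without that division the ratio was 1.71 and 1.52 with IAA and 2.31 and 2.08 without, which do not overlap. This sum, too, contains Pdk1. Within the phosphatases the share of Pdp1 was 12.98% and 13.2% with IAA, against 19.0% and 21.0% without. The kinases other than Pdk1 summed to 338.9 and 303.2 normalised reads per kb with IAA and to 323.3 and 321.8 without, overlapping at the deposited scaling. In the E1 enzyme the ratio of Pdha1 to Pdhb per kb was 1.181 and 1.242 with IAA, against 1.694 and 1.596 without, and the ratio of Pdha1 to Dlat was 2.14 and 2.16 with IAA, against 2.52 and 2.42 without. Per kb of longest transcript the Pdha1 to Pdhb ratio was 0.953 and 1.003 with IAA, against 1.367 and 1.288 without. Both ratios were lower in each IAA library than in each untreated library. They compare mRNA, and levels of the proteins or of phosphorylation were not measured here.

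Around the complex, counts of calls in the lists below are read against the 28.9% of all genes called lower and the 11.1% called higher. For counts with median-of-ratios factors the shares of all genes were 20.4% lower and 20.4% higher. For counts in the authors' deposited table they were 9.57% lower and 2.47% higher. Of 8 tested genes for the remaining subunits, lipoylation and pyruvate import, 2 fell and 1 rose, close to those shares, with a median log2 fold change of -0.10 against -0.11 over all genes. Lias (-0.32, SE 0.07), the lipoic acid synthase, and Gcsh (-0.29, SE 0.05), a lipoyl carrier protein, fell, and Lipt2 (0.52, SE 0.17), the octanoyl transferase that starts lipoylation, rose (limma adjusted p from 8.03e-05 to 0.0202). Lipt2 had only 89 and 84 normalised reads with IAA and 61 and 59 without. Under median-of-ratios scaling the calls were 2 lower and 2 higher, and the authors' deposited table has 1 lower and none higher at 0.05. The mitochondrial pyruvate carrier genes Mpc1 (-0.12) and Mpc2 (-0.09) did not pass, nor did Dld, the E3 subunit (-0.04), which was named with them after its values were seen.

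Genes for other fates of pyruvate, listed with Pkm, Me1 and Me2, which make it, gave 6 lower and 1 higher of 13 tested, with a median of -0.21. Ldha, the main subunit of lactate dehydrogenase, had 4991 and 4651 normalised reads with IAA, against 6508 and 7377 without, a log2 fold change of -0.52 (limma SE 0.05, adjusted p = 4.92e-08). Ldhb fell by 0.50 on the log2 scale, Gpt2, which joins pyruvate to alanine, fell by 0.50, and Gpt fell by 0.86 at 42 and 39 normalised reads with IAA against 75 and 74 without. The riser was Slc16a1, a lactate and pyruvate transporter (0.15, SE 0.04), named because it was the single one. Median-of-ratios scaling left 5 lower calls and 1 higher call, and the authors' deposited table has 4 lower and none higher at 0.05.

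The related dehydrogenases and the citric acid cycle were mostly lower. Of the 9 genes of sister complexes, which use the same chemistry on other 2-oxo acids, 6 fell and none rose, with a median of -0.33. Dhtkd1, which acts in lysine breakdown, had 413 and 438 normalised reads with IAA against 688 and 625 without (-0.62, SE 0.07; limma adjusted p = 1.44e-06). Bckdhb, of the branched-chain complex (-0.54), Ppm1k, its phosphatase (-0.41), and Ogdhl (-0.36) fell as well. Bckdk, the kinase that restrains the branched-chain complex and a relative of the Pdk genes, did not pass (0.03), and was named after its values were seen. In the citric acid cycle 13 of 15 fell and none rose, with a median of -0.26. Cs, the citrate synthase that takes up the acetyl-CoA made by the complex, had 4207 and 4126 with IAA against 5285 and 5438 without (-0.36, SE 0.04), and Idh2 (-0.57), Sdhb (-0.51) and Suclg2 (-0.40) fell most. Median-of-ratios scaling left 6 lower calls among the sister genes, 9 among the cycle genes and none higher in either. At 0.05 the authors' deposited table has 5 of the sister genes and 7 of the cycle genes lower and none higher.

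Genes for the supply of acetyl-CoA from other sources and for its use were mostly lower. Of 9 genes 7 fell and none rose, with a median of -0.39. Acss1, which makes acetyl-CoA from acetate in mitochondria, had 92 and 81 normalised reads with IAA against 205 and 177 without (-1.13, SE 0.14; limma adjusted p = 1.92e-06). Acss2, its counterpart in the cytosol and nucleus, fell by 0.91 and had 50 and 55 with IAA against 110 and 90 without. Acacb (-0.46) and Acaca (-0.42), which encode acetyl-CoA carboxylases, fell as well. Median-of-ratios scaling left 5 lower calls and 1 higher call, while 3 are lower and none higher at 0.05 in the authors' deposited table.

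Genes of the HIF pathway moved in both directions, and more of its targets other than Pdk1 fell than rose. In the pathway 2 genes fell and 3 rose of 9 tested, with a median of 0.07. Hif1a, the oxygen-regulated subunit, had 1071 and 956 normalised reads with IAA against 1242 and 1180 without (-0.26, SE 0.06; limma adjusted p = 0.00178), and Arnt, its partner, fell by 0.22 on the log2 scale. Egln2 (0.29), a prolyl hydroxylase that marks HIF for destruction, and Hif1an (0.23), an asparaginyl hydroxylase that blocks its activity, rose, as did Vhl (0.21), the ligase subunit, named because it was the remaining call. Of 31 HIF targets other than Pdk1, 15 fell and 3 rose, with a median of -0.19. Over all genes 28.9% were called lower and 11.1% higher, with a median of -0.11. Car9, a carbonic anhydrase, was at -0.98 (SE 0.28) from 18 and 19 normalised reads with IAA against 35 and 40 without, and Aldoc, an aldolase, at -0.97 (SE 0.11). Kdm3a, a histone demethylase, went the other way, with 2092 and 2138 with IAA against 1233 and 1346 without (0.71, SE 0.05; limma adjusted p = 2.69e-09). Under median-of-ratios scaling the pathway had 2 calls down and 4 up, and the targets 11 down and 5 up, against 20.4% of all genes in each direction. The authors' deposited table has none of the pathway calls at 0.05, and 7 targets lower and 2 higher, against 9.57% and 2.47% of all its genes with an adjusted p.

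Of 10 tested transcription factor genes with a known action on Pdk genes, 2 fell and none rose. Over all genes 28.9% were called lower and 11.1% higher, and nothing is read from this count. Ppargc1b, a coactivator of nuclear receptors, had 94 and 116 normalised reads with IAA against 143 and 168 without (-0.57, SE 0.14; limma adjusted p = 0.0036), and Rb1 was at -0.42 (limma SE 0.12, adjusted p = 0.00786). Median-of-ratios scaling gave 2 calls in each direction, and the authors' deposited table has none at 0.05.

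**Figure D4:**
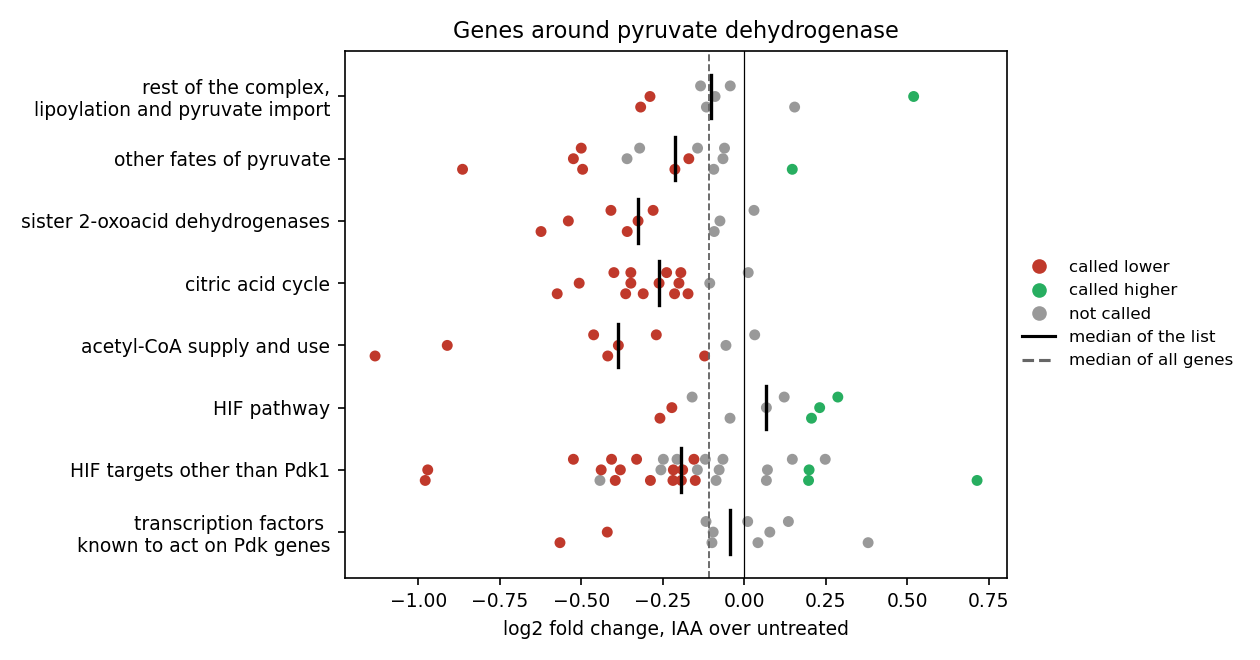
Log2 fold change, IAA over untreated, of each tested gene in 8 lists around pyruvate dehydrogenase, coloured by its limma call at the deposited scaling, with the median of each list (black) and of all genes (dashed). The citric acid cycle and acetyl-CoA lists lie mostly left of 0 with medians of -0.26 and -0.39, and the HIF pathway lies on both sides.

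Patterns over the 4 libraries were compared with that of Pdk1 by the root mean square difference of log2 values after centring each gene. Among 9405 genes with a mean of at least 100, predicted genes and pseudogenes left out, the median difference was 0.755. The nearest genes were Kifc3 (0.10), Adam19 (0.15), Sptb (0.15), Wwox (0.15) and Ntn1 (0.17). They encode a kinesin, a metalloprotease, a spectrin, an oxidoreductase and a guidance cue. Kifc3 had 66 and 67 normalised reads with IAA against 185 and 195 without. The likeness rests on a single contrast and is a description.

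Along the chromosome both neighbours of Pdk1 had lower means with IAA. That their fold changes were smaller follows nearly from the choice of Pdk1 by its fall, and nothing is read from it. Itga6, an integrin gene that ends 14808 bases to the left, had 1635 and 1624 normalised reads with IAA and 1789 and 1745 without (-0.12, SE 0.05; limma adjusted p = 0.0516). Rapgef4, which begins 77382 bases to the right and encodes an exchange factor activated by cAMP, had 57 and 61 with IAA against 100 and 101 without (-0.76, SE 0.17; limma adjusted p = 0.0011). Pdpk1, whose protein is also called PDK1 and which acts in insulin signalling, is another gene. It had 1503 and 1468 normalised reads with IAA and 1250 and 1394 without, a rise of 0.17 on the log2 scale (limma SE 0.06, adjusted p = 0.0183).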

How the data were processed

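Poly(A) RNA of 2 IAA and 2 untreated libraries was analysed from a single table. The submitters' processing notes list, with no roles, DESeq2, featureCounts, STAR, Bowtie2, cutadapt 1.18, SAMtools and deepTools, and as builds dm6 and mm10. The values per library that the authors deposited are scores, that is reads divided by a size factor and rounded. The deposited mean is a signal, from which factors of 0.98 and 0.95 (IAA) and 0.88 and 0.87 (untreated) and whole reads for 100% of genes came out (tolerance 0.001). The sources used here do not give what these factors were computed on, nor whether reads aligned to dm6 entered them. Over their geometric mean they were 1.07 and 1.03 (IAA) and 0.958 and 0.947 (untreated). Median-of-ratios factors of the recovered reads were 1.04 and 0.994 (IAA) and 0.988 and 0.992 (untreated), so the scalings differ. The log2 fold changes, their SE, the Wald statistic and the p-values deposited by the authors come from DESeq2, per the file headers.

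Genes with a mean of at least 10 entered a limma 3.58.1 fit of log2(value + 1) in R 4.3.3, with a trend and Benjamini-Hochberg adjustment over 14928 genes and calls at 0.05. Such fold changes understate low genes. No negative binomial count test was run, and voom on recovered reads is an alternative. The fit was tested on simulated data, in which few genes changed and all shared a single spread beyond counting error. That does not check calls in a table where 39.9% of all genes were called. Members and lists were chosen with earlier results of these data known. The rule names all members, the 4 most changed called genes of each list (the 2 most expressed in a list without calls), the 5 genes nearest to Pdk1 in pattern, its neighbours, Polr2c and Pdpk1. Marker lists with no call are given by their sums alone. Levels and exon overlaps use GENCODE M21 on GRCm38, copies were sought with BLAST 2.17.0, and promoters are from RefSeq. Symbols in the file were missing for 9009 genes, of which 8955 were filled from the reference by gene ID. Alternatives were thresholds, filters, pseudocounts, scalings, models, left-out libraries, replicate blocks and gene lengths.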

Additional observations from a re-analysis of the deposited data

How the results depend on the processing

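The log2 fold change of Pdk1 kept its direction in all alternatives, at -1.49 with median-of-ratios factors, -1.49 with library totals and -1.70 to -1.49 without 1 library. The table had 4312 genes lower and 1650 higher. The counts were 1037 higher at an adjusted p under 0.01, 3038 higher with median-of-ratios factors, 3082 higher with library totals, 638 lower and 179 higher with no filter, and 1100 lower and 284 higher in the authors' deposited table. Members called lower numbered 2 with no filter and 2 in the authors' deposited table, and those called higher 2 with median-of-ratios factors and 2 with library totals. Without 1 library, limma on log2 values called 0 genes and 0 members, with 4738 to 5080 genes at an unadjusted p under 0.05, while voom on recovered reads, chosen after seeing the data, called 4749 to 5268 genes, and 0 to 1 member higher. These fits leave a single residual degree of freedom, and the spread of the other group stands in for that of the lone library. Pdp2 turned to 0.0307 with median-of-ratios factors and 0.0345 with library totals, and Pdk2 ranged from -0.126 to 0.128 without 1 library in limma, turning negative without IAA replicate 1, and none of these values was called. Pdk1 made up 25.2% of the kinases with IAA and 49.8% without when values were not divided by length, and 12.8% and 30.8% with longest transcripts. With no filter the lists kept 0 to 6 lower and 0 to 1 higher calls each. The kinase to phosphatase ratio was 1.62 with IAA and 2.19 without when not divided by length, and 3.36 and 3.68 with longest transcripts. Deviations of same-numbered libraries had a correlation of 0.00153, and of -0.065 among genes with a mean of at least 100. Libraries of a group differed by little more than counting error, so this cannot show whether the libraries were paired. The fit with a replicate block called 5958 genes and lost Dlat (limma adjusted p = 0.057). Depth limits Pdk2, Pdk4 and Pdp1, which had 74 to 172 reads a library. The causes of these changes were not tested.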
